A study of Homo sapiens with 60 samples.

Results

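The genes described here make, bind or break down hyaluronan, the long unsulfated sugar chain of the pericellular coat, apart from HMMR-AS1, an antisense transcript. They were the 10 rows of the count table whose Ensembl identifiers map to HAS1, HAS2, HAS3, CD44, HMMR-AS1, HYAL1, HYAL2, HYAL3, CEMIP and CEMIP2, out of 60675 genes in the table. Their values were followed in 60 RNA-seq libraries of SW1783, an established human astrocytoma cell line, treated for 24 h. The vehicle group, with 0.1% DMSO in its sample labels, had 3 libraries. The other groups had received a water extract of Cnidii Rhizoma, Rehmanniae Radix Preparata, Cinnamomi Cortex, Astragali Radix, Angelicae Gigantis Radix or Paeoniae Radix, or of the herbal formulas Sagunja-tang or Samul-tang, each at 500, 100 or 20 µg/mL, called high, medium and low dose here. The series text differs from the sample labels on 2 points: it names a higher DMSO level for the vehicle, and it says that extracts toxic below the top dose were given at lower, toxicity-based concentrations. The labels are followed here, so a printed dose is the labelled one. Groups are named by the first word of the plant name and the dose. Cnidii, Rehmanniae, Cinnamomi, Astragali and Sagunja-tang had 3 libraries at each dose, Samul-tang had 2, and Angelicae and Paeoniae had 1, which gave 25 groups. All groups share the cell line and the time. How much DMSO, if any, the extract groups held is not in the labels, and nothing in them says whether the libraries of a group came from separate cultures. P-values therefore measure the spread between these libraries, which may be technical.

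Hyaluronan is polymerised at the plasma membrane by HAS1, HAS2 and HAS3 from UDP-glucuronic acid and UDP-N-acetylglucosamine and is pushed out of the cell as it grows. HAS2 is the main synthase of many fibroblast-like cells, and HAS3 is often described as the maker of shorter chains. CD44 is the principal surface receptor, and astrocytic tumours are known for a hyaluronan-rich matrix and high CD44. Breakdown runs through HYAL2, a membrane-anchored hyaluronidase that cuts long chains, through HYAL1 in lysosomes, and through CEMIP and CEMIP2, which support or carry out cleavage of hyaluronan outside the lysosome.

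The libraries held between 20604792 and 29609799 estimated counts and detected 22705 to 23990 genes. One of the 3 Sagunja-tang low libraries, number 1, stood apart: the median absolute log2 deviation of its genes from the median library was 0.512, against 0.0453 to 0.159 in the other 59. Since all groups share one estimate of the spread, fold changes and adjusted p-values without it are given beside the results. The vehicle libraries carry a sample code that no extract library has. A difference that goes with that code and an effect of an extract cannot be told apart in any comparison with vehicle, and all of those comparisons share the same 3 vehicle libraries. Comparisons of doses, and of a pair of extracts that share a code, do not use the vehicle. Of 10 astrocyte markers, 5 reached 1 CPM (library-scaled counts, used for all levels below) in vehicle and GFAP, S100B, AQP4, ALDH1L1 and SLC1A2 did not, while 8 of 8 fibroblast and smooth muscle markers did. Markers of epithelial cells reached that level for 2 of 6 genes, of microglia and macrophages for 3 of 6, of endothelial cells for 2 of 5 and of neurons for 4 of 5. Under 1 CPM were EPCAM, CDH1, KRT19 and ESRP1 of the epithelial list, CX3CR1, AIF1 and TYROBP of the microglial list, PECAM1, CDH5 and VWF of the endothelial list and RBFOX3 of the neuron list.

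Promoter sequence is shown for HAS3 and CEMIP, because both members had their highest level of the 25 groups in Paeoniae high, a single library. Both also lay on the same side of vehicle in Astragali, Rehmanniae high and Samul-tang high. In Cinnamomi high they lay on opposite sides, HAS3 above every vehicle library and CEMIP below. In Sagunja-tang high HAS3 lay above vehicle and CEMIP overlapped with it. The stretches were taken from RefSeq on GRCh38.p14, run 5′ to 3′ on the strand of the gene, and hold no annotated exon. HAS3 (chr16:69107290-69107539, plus strand, 250 bases up to the RefSeq start, which lies inside the longer GENCODE gene) and CEMIP (chr15:80779120-80779342, plus strand, 223 bases ending 28 bases before the RefSeq start) are printed with motif matches in capitals.
HAS3: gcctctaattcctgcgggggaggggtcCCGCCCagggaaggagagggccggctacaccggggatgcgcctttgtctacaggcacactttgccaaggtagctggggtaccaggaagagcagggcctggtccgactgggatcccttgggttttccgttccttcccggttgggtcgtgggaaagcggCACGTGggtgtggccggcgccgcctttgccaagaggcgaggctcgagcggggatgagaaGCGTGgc
CEMIP: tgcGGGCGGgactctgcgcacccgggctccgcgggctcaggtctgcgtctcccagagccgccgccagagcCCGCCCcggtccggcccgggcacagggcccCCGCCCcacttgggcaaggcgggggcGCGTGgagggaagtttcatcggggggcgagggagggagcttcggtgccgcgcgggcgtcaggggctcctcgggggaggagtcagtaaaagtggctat
The motifs searched on both strands were the aryl hydrocarbon receptor core GCGTG, the AP-1 site TGANTCA, the E-box CACGTG, the TATA box TATAAA, the GC box GGGCGG and the NF-kB site. In the HAS3 stretch the capitals mark a GC box, an E-box and a GCGTG core, and in the CEMIP stretch 3 GC boxes and a GCGTG core. None of the marked matches overlaps another. Over the 35116 RefSeq promoters of this kind, in windows of 250 bases, GCGTG occurs in 32.2%, GGGCGG in 42.6% and CACGTG in 6.34%, so the GCGTG core and the GC box that the 2 stretches share are common. AP-1 (6.57% of promoters), NF-kB (9.96%) and TATA letters (10.7%) were not found in the 2 stretches, though a TATAAA match of CEMIP begins 30 bases before the start, at the end of the stretch shown. The matches describe letters only.

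In vehicle, CD44 was by far the most abundant member. Per kilobase of exon, on the CPM scale, its mean level was 277, against 21.0 for HAS2, 14.3 for HYAL2, 11.7 for CEMIP2, 9.36 for HAS3, 6.51 for CEMIP, 3.41 for HYAL3, 0.119 for HYAL1 and 0.0179 for HAS1. HMMR-AS1 had no count in any vehicle library. HAS2 was thus the leading synthase by transcript level and HAS1 close to undetected. 8 of the 10 members passed the filter on low counts and were tested with edgeR's quasi-likelihood test, with Benjamini-Hochberg adjustment over 17516 genes in each comparison and a call at an adjusted p under 0.05. HAS1 and HMMR-AS1 did not pass it.

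Against vehicle, the calls fell on a few members in a few groups. In Cinnamomi high 2 of 8 members were called (22.8% of all genes tested were), in Astragali high 2 of 8 (4.45%), in Astragali medium 1 (3.94%) and in Astragali low 1 (3.67%). In Sagunja-tang high 2 were called (17.1%), in Sagunja-tang low 4 (22.1%), in Samul-tang low 1 (2.62%) and in Rehmanniae low 1 (0.993%). With 8 members tested, the shares in Cinnamomi high and Sagunja-tang high were near those of all genes, and the 4 calls in Sagunja-tang low rested in part on the library that stood apart. No member was called by edgeR in the other 10 comparisons with vehicle, where 12 of 80 tests had an unadjusted p under 0.05 and DESeq2 called 1. The share of all genes at an unadjusted p under 0.05 was not counted, so the 12 cannot be compared with it. In those comparisons the share of all genes called was 1.35% in Cnidii high, 0.297% in Cnidii medium, 0.383% in Cnidii low, 2.37% in Rehmanniae high, 0.714% in Rehmanniae medium, 2.29% in Cinnamomi medium, 1.06% in Cinnamomi low, 6.32% in Sagunja-tang medium, 4.13% in Samul-tang high and 1.75% in Samul-tang medium. Without Sagunja-tang low library 1 the number of member calls over all 18 comparisons went from 14 to 44, and more of all genes were called as well. In order of falling dose, that share was 5.57%, 1.37% and 1.79% with Cnidii, 7.65%, 2.93% and 3.64% with Rehmanniae, 35.9%, 7.43% and 5.45% with Cinnamomi, 12.7%, 13.9% and 14.1% with Astragali, 30.9%, 17.6% and 11.4% with Sagunja-tang, and 13.4%, 11.3% and 13.2% with Samul-tang. Between high and low dose the member calls then went from 12 to 16, with 0.957% of all genes called with Cnidii, 3.51% with Rehmanniae, 35.9% with Cinnamomi, 1.16% with Astragali, 6.49% with Sagunja-tang, 1.92% with Samul-tang. The plot of fitted fold changes marks which calls were made with and without that library.

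**Figure D1:**
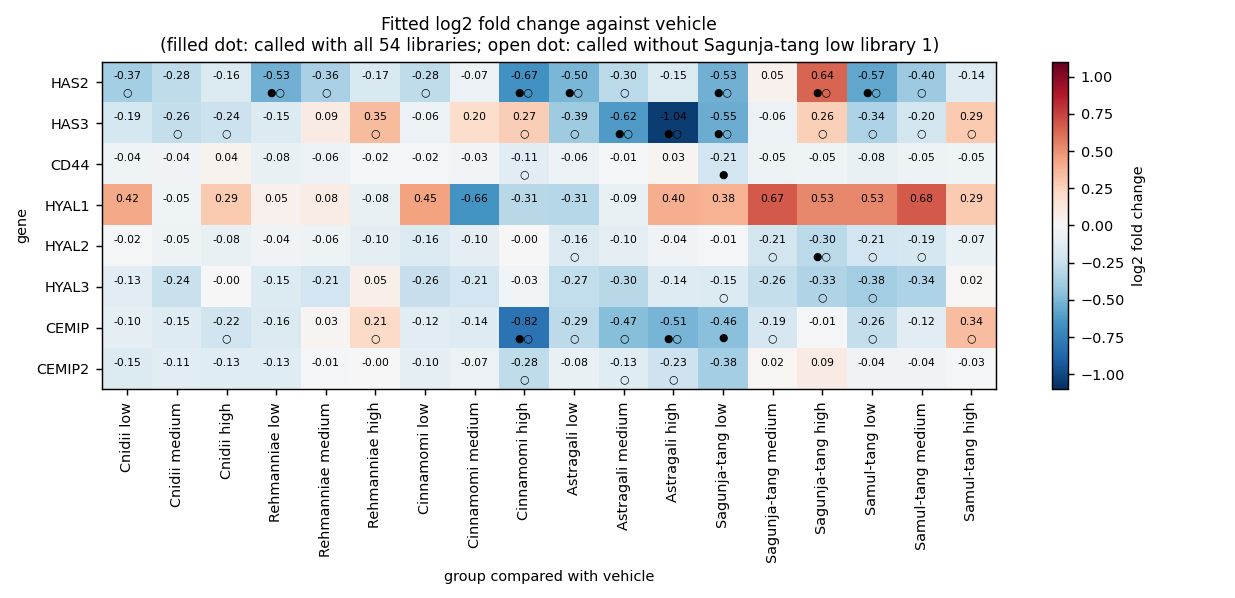
Fitted log2 fold change of the 8 tested members (rows) in each of 18 groups against vehicle (columns). Colour and number give the log2 fold change, a filled dot marks an adjusted p under 0.05 with all 54 libraries, and an open dot the same without Sagunja-tang low library 1. HAS2, HAS3 and CEMIP hold most marks, while HYAL1, with few counts, has large values and none.

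HAS2 rose in Sagunja-tang high and fell in Cinnamomi high. In bulk libraries, fewer cells of a kind and less RNA per cell cannot be told apart, here and for all members. Its levels were 88.1, 91.9 and 84.0 CPM in the vehicle libraries and 147, 134 and 125 CPM in Sagunja-tang high, so the groups did not overlap. The fitted log2 fold change was 0.64 ± 0.12 (SE, n = 3 against 3, adjusted p = 8.96e-05 by edgeR), and 0.62 without the library that stood apart (adjusted p = 8.94e-08). Sagunja-tang medium, at 92.9, 89.7 and 88.2 CPM, overlapped with vehicle (log2 fold change 0.05). The 2 Sagunja-tang low libraries other than number 1 had 68.9 and 71.3 CPM, and number 1 had 40.5. High against low dose of Sagunja-tang, HAS2 rose by 1.17 ± 0.12 on the log2 scale (adjusted p = 6.94e-10, 20.5% of genes called), and by 0.95 without library 1 (adjusted p = 2.58e-10). In a fit of these 2 groups alone, library 1 included, it was not called (adjusted p = 0.355).

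With the Cinnamomi extract the high dose was the lowest of the 3. HAS2 was at 56.8, 54.6 and 53.3 CPM in Cinnamomi high, at 86.1, 83.5 and 80.6 CPM in Cinnamomi medium and at 74.9, 76.5 and 64.5 CPM in Cinnamomi low. Every high-dose library lay below every library of the other doses and of the vehicle. The change against vehicle was -0.67 ± 0.12 (adjusted p = 2.97e-05), and against the low dose -0.39 ± 0.12 (adjusted p = 0.0143, 21.6% of genes called). Leaving out Sagunja-tang low library 1, these were -0.68 (adjusted p = 1.43e-08) and -0.39 (adjusted p = 0.000319). The call between doses was lost when Cinnamomi low library 1 or 2 or Cinnamomi high library 3 was left out (adjusted p 0.051 to 0.0692).

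Cell-type markers moved in the same 2 groups, and some lists were lower in most other extract groups as well. The summed level of the fibroblast and smooth muscle list was 7040 to 7087 CPM in vehicle, 5201 to 5228 in Sagunja-tang high and 4730 to 5485 in Cinnamomi high, with 6 and 5 of 8 genes called lower and none higher. Without Sagunja-tang low library 1, 6 of the 8 were called lower in Cinnamomi high and 2 higher. The astrocyte list summed to 6070 to 6292 CPM in vehicle, 5076 to 5435 in Sagunja-tang high and 5574 to 5912 in Cinnamomi high, with 4 and 3 of 6 tested genes called lower. Both lists were thus lower in both groups without overlap, but this was not particular to these groups. Among all extract groups, the astrocyte list overlapped with vehicle only in Astragali high and Sagunja-tang medium. It was at 5327 to 5509 CPM in Astragali low. The fibroblast and smooth muscle list overlapped with vehicle only in Cinnamomi medium. It was at 5988 to 6032 CPM in Sagunja-tang medium. The epithelial list went from 244 to 247 CPM in vehicle to 114 to 123 and 85.3 to 91.5 (2 of 3 tested genes lower in each), and the neuron list from 180 to 181 CPM to 124 to 129 and 138 to 145 (1 and 3 of 4 lower). The microglia and macrophage list, at 166 to 178 CPM in vehicle, was at 166 to 177 in Sagunja-tang high and 206 to 235 in Cinnamomi high. Without Sagunja-tang low library 1, 1 of its 3 tested genes was called higher in Cinnamomi high and 2 lower (median log2 change -0.44). The endothelial list stayed between 28.9 and 33.6 CPM in the 3 groups. Among all genes 17.1% were called in Sagunja-tang high and 22.8% in Cinnamomi high. The part of these markers in the results of HAS2 and the other members in these groups was not tested.

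At the lowest dose HAS2 was below vehicle with every extract, as most members were in most libraries. All 19 low-dose libraries, of 8 groups, lay between 40.5 and 76.5 CPM, below the lowest vehicle library at 84.0. The same held for 19 of 19 libraries with HAS3, 18 with CD44, 17 with HYAL2, 15 each with HYAL3 and CEMIP and 13 with CEMIP2, so the position below vehicle is not particular to HAS2. The share of all genes with such a position was not counted, so these counts do not set the members apart from other genes. The TMM scaling factors, of which a lower one raises CPM, were 0.965 to 0.973 in vehicle. In the low-dose libraries they were 0.983 to 1.02, apart from Sagunja-tang low library 1 (0.934). The part of the scaling in these positions was not tested. At the medium dose 15 of 19 HAS2 libraries were below the vehicle range and at the high dose 13 of 19, with 3 above it. HAS2 fell in Rehmanniae low (-0.53 ± 0.12, adjusted p = 0.0118), Astragali low (-0.50 ± 0.12, adjusted p = 0.0083), Samul-tang low (-0.57 ± 0.13, adjusted p = 0.0104) and Sagunja-tang low (-0.53 ± 0.12, adjusted p = 0.00218). With library 1 of Sagunja-tang low left out, the 4 values were -0.54 (adjusted p = 3.17e-05), -0.52 (3.24e-05), -0.59 (4.09e-05) and -0.33 (0.0171). In Cnidii low (-0.37) and Cinnamomi low (-0.28) it did not pass the test, though both passed without Sagunja-tang low library 1 (adjusted p 0.00663 and 0.0275). So did, at the medium dose, Rehmanniae (-0.37, adjusted p = 0.0069), Astragali (-0.31, 0.00948) and Samul-tang (-0.41, 0.00352), and HAS2 was then also higher at the high than at the low dose of Rehmanniae (0.36, adjusted p = 0.00784), Astragali (0.35, 0.0209) and Samul-tang (0.44, 0.00965). In 3 of the 4 groups called with all libraries the call rested on single libraries. The one in Rehmanniae low was lost without vehicle library 1 or 2 or Rehmanniae low library 2 or 3 (adjusted p 0.0571 to 0.0832), the one in Astragali low without its library 3 (0.0827), and the one in Samul-tang low without either of its libraries (0.123 and 0.206). The one in Sagunja-tang low was lost with only its 2 groups in the fit (0.747), library 1 included. Since these groups share the vehicle, their common direction is not a set of independent results, and whether it goes with the vehicle's own sample code was not tested. Over all 25 groups, HAS2 in Sagunja-tang high (mean 135 CPM) stood clear of the next group, Sagunja-tang medium (90.3), whereas from there down to Rehmanniae high (77.6) neighbouring groups overlapped.

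HAS2-AS1, a transcript on the opposite strand that overlaps HAS2 by 2098 bases, was looked up because of that overlap. It had 3.27, 3.43 and 2.78 CPM in vehicle and 5.65, 4.34 and 4.52 CPM in Sagunja-tang high, and it rose there (0.63 ± 0.19, adjusted p = 0.0161, and 0.00646 without Sagunja-tang low library 1). No source used here states whether counting used strand, so reads of HAS2 and of HAS2-AS1 over the shared stretch cannot be told apart. The same limit holds for other members that overlap genes on the opposite strand. HAS3 overlaps CHTF8 by 710 bases and CD44 overlaps CD44-AS1 by 4643. CEMIP overlaps MESD by 5488 bases and an unnamed antisense gene by 52678.

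HAS3 fell with Astragali and was lowest at its high dose. Vehicle had 50.6, 48.3 and 49.7 CPM, Astragali low 36.9, 37.2 and 38.4, Astragali medium 32.4, 32.7 and 30.9, and Astragali high 21.8, 24.0 and 25.9 CPM. The 4 groups do not overlap. Against vehicle the log2 fold change was -1.04 ± 0.13 in Astragali high (adjusted p = 3.81e-07) and -0.62 ± 0.13 in Astragali medium (adjusted p = 0.00216), and without Sagunja-tang low library 1 it was -1.05 (2.17e-16) and -0.63 (5.03e-09). Astragali low, at -0.39, had an adjusted p of 0.0699, and of 3.24e-05 without Sagunja-tang low library 1. High against low dose, HAS3 fell by 0.65 on the log2 scale (SE 0.13, adjusted p = 0.00725), in a comparison where 0.28% of all genes were called, and by 0.65 without Sagunja-tang low library 1 (adjusted p = 1.19e-08). That call was lost without Astragali high library 1 (adjusted p = 0.112) or Astragali low library 3 (0.0501).

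**Figure D2:**
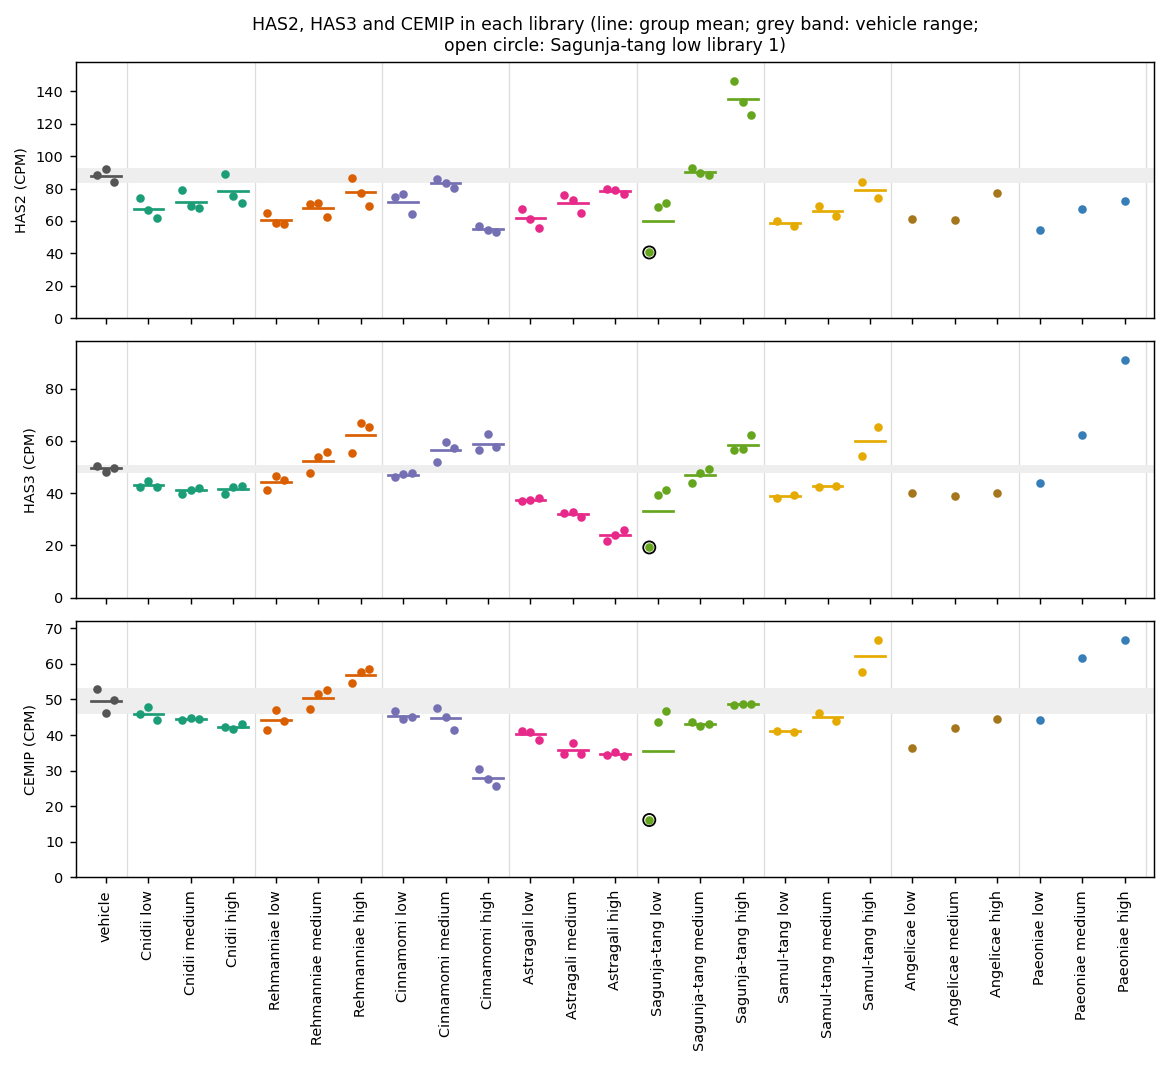
HAS2, HAS3 and CEMIP in CPM (vertical axes, from 0) in each of the 60 libraries by group. Points are libraries, lines group means, the grey band the range of the 3 vehicle libraries and the open circle Sagunja-tang low library 1. HAS2 is highest in Sagunja-tang high, HAS3 lowest in Astragali high, and HAS2 and CEMIP are both low in Cinnamomi high.

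In other extracts HAS3 was higher at the high dose than at the low dose. Sagunja-tang high had 56.6, 56.9 and 62.2 CPM against 39.5 and 41.4 in the 2 low-dose libraries that did not stand apart and 19.2 in number 1. The difference was 0.81 ± 0.13 (adjusted p = 1.19e-05), and 0.54 ± 0.07 without number 1 (adjusted p = 3.94e-07). With only these 2 groups in the fit, number 1 included, it was not called (adjusted p = 0.768). Rehmanniae high had 55.3, 66.9 and 65.2 CPM and Rehmanniae low 41.2, 46.8 and 45.2 (0.49 ± 0.12, adjusted p = 0.0369, 0.805% of genes called). Samul-tang high had 54.4 and 65.2 CPM and Samul-tang low 38.3 and 39.3 (0.62 ± 0.15, adjusted p = 0.0323, 0.736% of genes called). Cinnamomi high had 56.6, 62.8 and 57.7 CPM and Cinnamomi low 46.4, 47.3 and 47.6 (0.33 ± 0.12, adjusted p = 0.0495). In each of these pairs the libraries did not overlap. The last 3 calls were near the threshold. They were lost with scaling by library size alone (adjusted p 0.052 for Rehmanniae, 0.0543 for Samul-tang and 0.0722 for Cinnamomi), without any one of the libraries compared for Cinnamomi (0.065 to 0.161) and Samul-tang (0.0508 to 0.556), and without Rehmanniae low library 1, 2 or 3 or Rehmanniae high library 2 or 3 (0.0924 to 0.221). Without Sagunja-tang low library 1 all 3 had an adjusted p of at most 6.11e-05. For Cnidii the high and low doses overlapped (39.8 to 42.7 and 42.2 to 44.6 CPM). There edgeR and DESeq2 called 0 of 8 members, 0 had an unadjusted p under 0.05, and 0.228% of all genes were called.

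Against vehicle, HAS3 was above every vehicle library in all libraries of Rehmanniae high, Cinnamomi high, Sagunja-tang high and Samul-tang high, with log2 fold changes of 0.35, 0.27, 0.26 and 0.29 that did not pass the test. All 4 passed without Sagunja-tang low library 1 (adjusted p 0.00032, 0.0015, 0.00296 and 0.00629). At the low dose, all 19 libraries lay below the vehicle range, from 19.2 to 47.6 CPM, a count not made for all genes. Only Sagunja-tang low was called among these (-0.55 ± 0.13, adjusted p = 0.00283), at -0.29 without its library 1 (adjusted p = 0.00739), and the call was lost with only its 2 groups in the fit (0.747). Without that library HAS3 was also called lower in Astragali low (-0.40, adjusted p = 3.24e-05) and Samul-tang low (-0.35, 0.00121), in Cnidii medium (-0.27, 0.0225) and Samul-tang medium (-0.22, 0.0469), and in Cnidii high (-0.25, 0.0168).

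The balance of the 2 synthases differed between extracts. As a ratio of per-length levels, HAS2 over HAS3 was 2.25 ± 0.14 in vehicle (SD, n = 3), 4.17 ± 0.44 in Astragali high and 1.18 ± 0.084 in Cinnamomi high. Sagunja-tang high had 2.93 ± 0.36 and Rehmanniae high 1.59 ± 0.34. The single Paeoniae high library had 1.00. The 3 Astragali high libraries, from 3.73 to 4.62, lay above all other libraries, and those of Cinnamomi high, none above 1.27, below every vehicle library, which started at 2.14. These ratios are a description and were not tested.

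**Figure D3:**
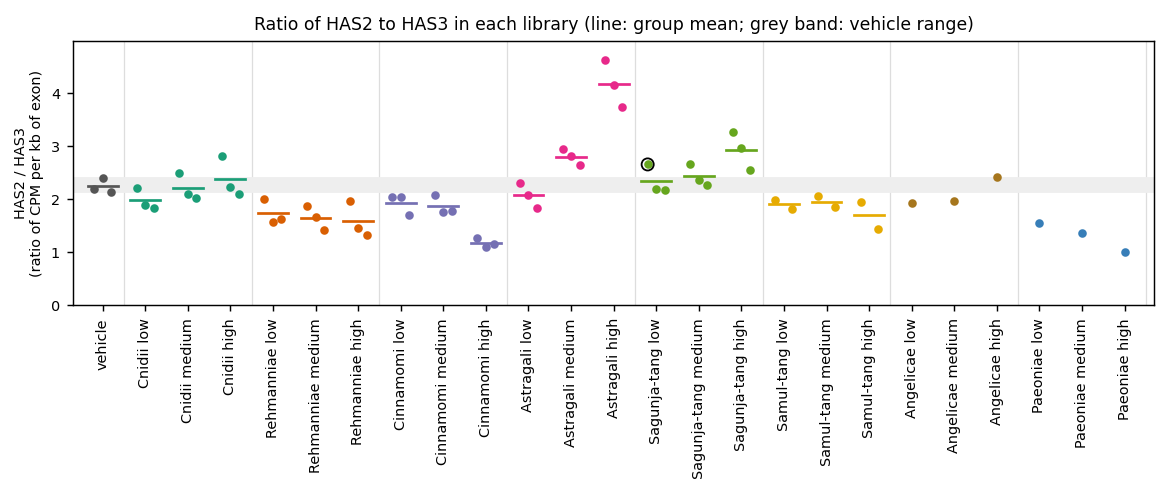
Ratio of HAS2 to HAS3, each as CPM per kilobase of exon (vertical axis, from 0), in each library by group. Points are libraries, lines group means, the grey band the vehicle range and the open circle Sagunja-tang low library 1. Astragali high lies highest and Cinnamomi high and Paeoniae high lowest.

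HAS1 had 77 counts in all 60 libraries together, 0 to 5 in each and none in 20 of them, with 1, 0 and 2 in vehicle. The largest group mean was 0.119 CPM in Astragali medium (5, 1 and 3 counts). Per-library counts this low leave little to compare, and at this depth no difference of HAS1 between groups was detectable.

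CEMIP, a secreted or membrane-associated protein needed for hyaluronan depolymerisation in fibroblasts, fell in Cinnamomi high. It was at 53.0, 46.1 and 49.7 CPM in vehicle and at 30.4, 27.6 and 25.6 CPM in Cinnamomi high, against 46.8, 44.5 and 45.1 CPM in Cinnamomi low. High-dose libraries lay below all others of the extract. The change was -0.82 ± 0.15 against vehicle (adjusted p = 8.88e-05) and -0.70 ± 0.15 against the low dose (adjusted p = 0.000689). In the fit without Sagunja-tang low library 1 these were -0.83 (adjusted p = 3.76e-16) and -0.70 (1.25e-13). HAS3, by contrast, was higher in the same libraries, and HAS2 lower. In Astragali high, CEMIP was at 34.5, 35.3 and 34.1 CPM, below vehicle without overlap (-0.51 ± 0.15, adjusted p = 0.0429). That call was lost with a laxer filter on low counts (adjusted p = 0.0959), with library size alone (0.0926) and without any one of the vehicle or Astragali high libraries (0.0679 to 0.184), while without Sagunja-tang low library 1 the adjusted p was 5.1e-09. Astragali medium (34.6, 37.7 and 34.7 CPM) and low (41.2, 41.0 and 38.7 CPM) were also below the vehicle range, with adjusted p of 0.0731 and 0.328, and of 8.08e-08 and 0.000229 without Sagunja-tang low library 1. CEMIP was then also called lower in Cnidii high (-0.23), Sagunja-tang medium (-0.20) and Samul-tang low (-0.28), and between high and low dose it was higher for Rehmanniae (0.37) and Samul-tang (0.60) and lower for Astragali (-0.22).

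CEMIP was above the vehicle range in Rehmanniae high (54.7, 57.7 and 58.5 CPM) and in Samul-tang high (57.6 and 66.6 CPM). Neither passed the test (0.21, adjusted p = 0.674, and 0.34, adjusted p = 0.297), and both did without Sagunja-tang low library 1 (0.0173 and 0.000194). The CEMIP level in that library was 16.1 CPM, against 43.6 and 46.7 in the other 2 of its group. The calls of CEMIP in Sagunja-tang low against vehicle (-0.46, adjusted p = 0.0272) and in Sagunja-tang high against low (0.45, adjusted p = 0.0347) were lost without it (-0.14, adjusted p = 0.153, and 0.11, adjusted p = 0.404). The first was also lost without vehicle library 1 (0.0985) or 3 (0.0632), and the second without any one of the Sagunja-tang high libraries (0.0709 to 0.0807). Neither was called with only its 2 groups in the fit (0.748 and 0.768).

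CEMIP2, a transmembrane protein with hyaluronidase activity, had a narrower range than CEMIP. Apart from the library that stood apart, at 35.4 CPM, the other 59 lay between 89.3 and 121 CPM. The lowest values were in Cinnamomi high (95.4, 89.8 and 89.3 CPM), all under the vehicle libraries at 108, 114 and 116 CPM (-0.28 ± 0.16, adjusted p = 0.231). Without Sagunja-tang low library 1 this was -0.30 ± 0.05 (adjusted p = 1e-06), and CEMIP2 then also passed in Astragali high (-0.24, adjusted p = 0.00017) and Astragali medium (-0.14, adjusted p = 0.0273). With all libraries its single call was high against low dose of Sagunja-tang (0.47, adjusted p = 0.0403), which fell to 0.11 without library 1 (adjusted p = 0.281) and was lost without any one of the Sagunja-tang high libraries (0.0647 to 0.0973), with library size alone (0.0529) and with only its 2 groups in the fit (0.768). Without library 1 it was called lower at the high than at the low dose of Cinnamomi (-0.18, adjusted p = 0.00149).

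The 3 hyaluronidase genes lie side by side on chromosome 3 (HYAL3 at 50292831 to 50299468, HYAL1 at 50299889 to 50312381 and HYAL2 at 50317790 to 50322906 on GRCh38, minus strand). HYAL2 overlaps TUSC2 by 2880 bases and HYAL3 overlaps NAA80 by 3020 on the same strand, so that estimated counts divide reads between them and their levels are uncertain. HYAL2 was at 64.8, 64.4 and 65.4 CPM in vehicle and at 49.2, 53.9 and 53.3 CPM in Sagunja-tang high, where it fell (-0.30 ± 0.08, adjusted p = 0.00456, and -0.31 with 4.42e-05 without Sagunja-tang low library 1). Against Sagunja-tang low the change was -0.29 (adjusted p = 0.00825), lost without Sagunja-tang low library 1, which had the highest HYAL2 of all libraries at 77.0 CPM (-0.13, adjusted p = 0.296), without Sagunja-tang high library 1 (0.0568) and with only its 2 groups in the fit (0.768). Without the library that stood apart, HYAL2 also passed as lower than vehicle in Sagunja-tang medium (-0.22), Samul-tang medium (-0.21), Samul-tang low (-0.23) and Astragali low (-0.17), and as higher at the high than at the low dose of Cinnamomi (0.15).

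HYAL3 was at 7.42, 6.46 and 6.90 CPM in vehicle and between 4.29 and 9.36 CPM over all libraries, and with all libraries it was not called by edgeR in any of the 27 comparisons. When Sagunja-tang low library 1 was left out it was called lower in 3 of them, Sagunja-tang high, Sagunja-tang low (-0.55, adjusted p = 0.00677) and Samul-tang low (-0.40, 0.0433). Its lowest fold change at the high dose was in Sagunja-tang high, at 4.91, 5.28 and 6.15 CPM (-0.33 ± 0.16, adjusted p = 0.159, and 0.0249 without Sagunja-tang low library 1). HYAL1 had 3 to 18 counts in a library and 630 in all. Its fitted changes against vehicle ran from -0.66 (Cinnamomi medium) to 0.68 (Samul-tang medium) with none called, so that differences of this size were not detectable at its depth.

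**Figure D4:**
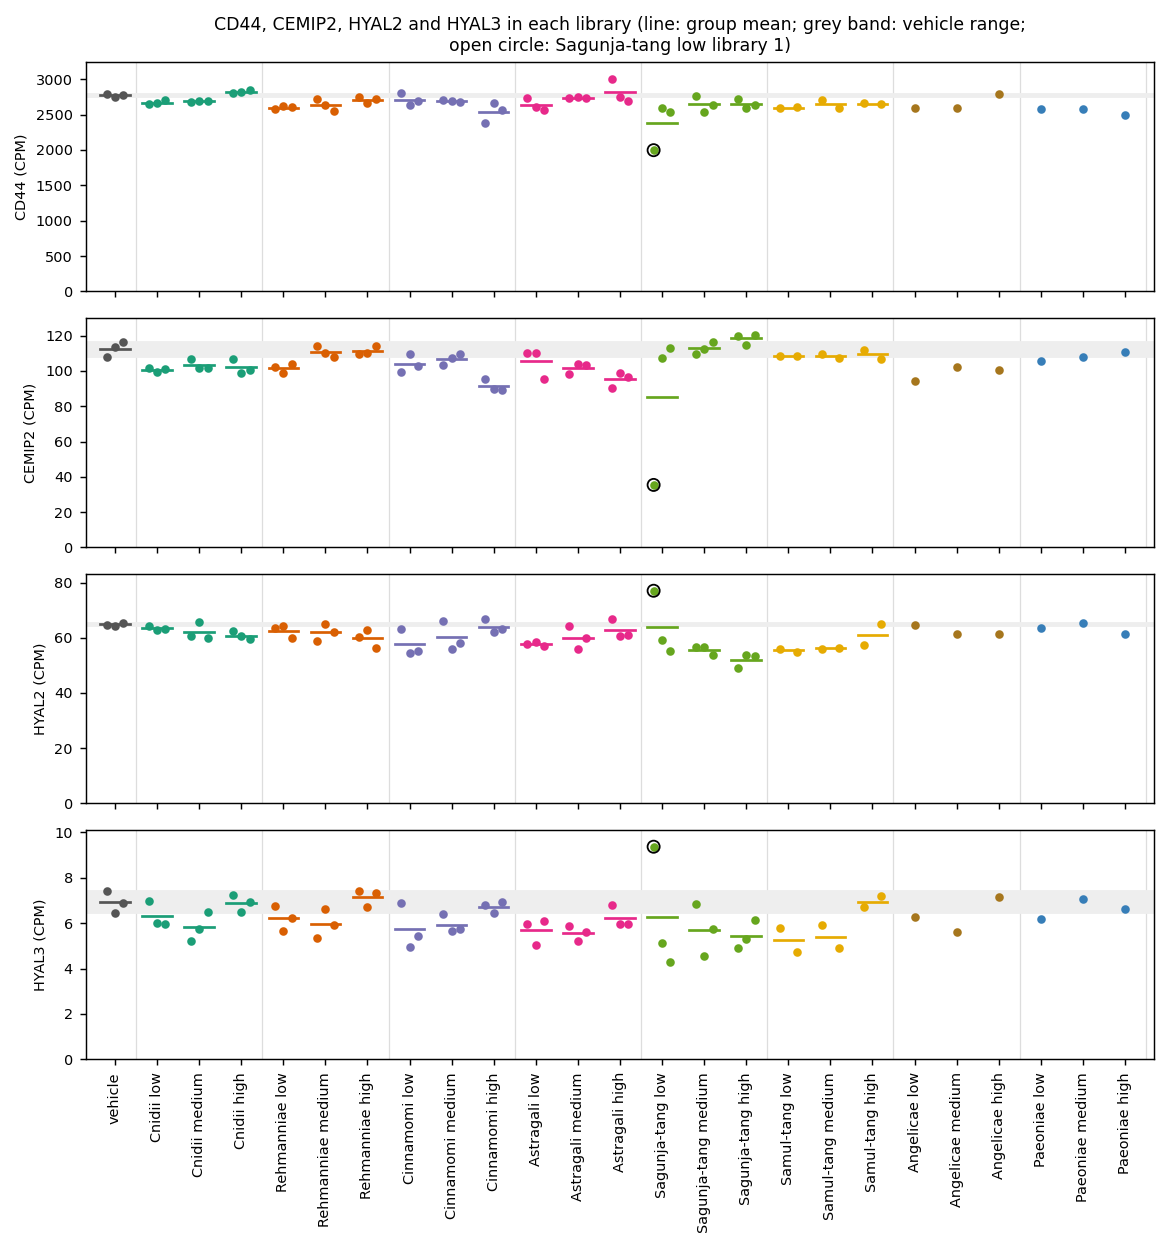
CD44, CEMIP2, HYAL2 and HYAL3 in CPM (vertical axes, from 0) in each of the 60 libraries by group. Points are libraries, lines group means, the grey band the vehicle range and the open circle Sagunja-tang low library 1. That library is the lowest for CD44 and CEMIP2 and the highest for HYAL2 and HYAL3, while HYAL2 is below the vehicle range in Sagunja-tang high and CEMIP2 in Cinnamomi high.

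CD44 had the narrowest range of the tested members. Its vehicle libraries had 2789, 2751 and 2779 CPM, and the 59 libraries other than Sagunja-tang low 1 lay between 2384 and 3006 CPM, with a coefficient of variation of 3.71% against 23.5% for HAS2 and 24.9% for HAS3. Sagunja-tang low 1 had 1997 CPM. The calls of CD44, in Sagunja-tang low (-0.21, adjusted p = 0.0104) and in Sagunja-tang high against low (0.16, adjusted p = 0.0467), were lost without that library (adjusted p 0.0745 and 0.617), the second also without any one of the Sagunja-tang high libraries (0.0657 to 0.146). With only the 2 groups in the fit neither was called (0.747 and 0.768). Without it, CD44 passed as lower in Cinnamomi high (2384, 2664 and 2569 CPM, -0.13 ± 0.04, adjusted p = 0.00877). The values are sums over transcripts and say nothing of CD44 splice forms.

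HMMR-AS1 lies on the minus strand of chromosome 5 and overlaps HMMR, which encodes the hyaluronan receptor RHAMM, by 8881 bases. It had 1 count in each of 3 libraries and none in the other 57. HMMR itself is no member but was on the list of other receptors. It was at 108 ± 3.5 CPM in vehicle (SD, n = 3) and fell in Cinnamomi high to 83.8 ± 3.2 CPM (-0.36 ± 0.07, adjusted p = 0.00012, and 8.15e-08 without Sagunja-tang low library 1) and in Rehmanniae high to 91.1 ± 6.6 CPM (-0.24 ± 0.07, adjusted p = 0.0469, and 0.000746 without it). HMMR is also a mitotic gene, and 9 of 12 genes on the mitosis list fell in Cinnamomi high, where 22.8% of all genes tested were called. Their part in the HMMR difference was not tested.

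Between extracts at the high dose, members differed in all 3 pairs compared. Cinnamomi high had more HAS3 than Astragali high, at 56.6 to 62.8 against 21.8 to 25.9 CPM without overlap. The difference was 1.31 ± 0.13 on the log2 scale (adjusted p = 6.45e-11), and HAS2 was lower by -0.51 ± 0.12 (adjusted p = 0.000819), in a comparison with 27.6% of genes called. In the fit without Sagunja-tang low library 1 they were 1.31 (3.09e-21) and -0.51 (3.35e-06). HAS2 was higher in Sagunja-tang high than in Samul-tang high (84.1 and 74.4 CPM) by 0.77 ± 0.13 (adjusted p = 4.06e-05, 8.36% of genes called, and 1.63e-08 without that library). HAS3 was lower in Cnidii high than in Rehmanniae high by -0.58 ± 0.12 (adjusted p = 0.0153, 0.263% of genes called), a call lost without Cnidii high library 1, 2 or 3 or Rehmanniae high library 2 or 3 (0.0751 to 0.175) and kept without Sagunja-tang low library 1 (1.72e-08). Without Sagunja-tang low library 1, CEMIP also passed in all 3 pairs (-0.43 for Cnidii against Rehmanniae, -0.31 for Cinnamomi against Astragali and -0.35 for Sagunja-tang against Samul-tang), where 0.842%, 41.3% and 17.6% of genes were called. CD44 then also passed as lower in Cinnamomi than in Astragali high (-0.15, adjusted p = 0.00183) and HYAL2 as lower in Sagunja-tang than in Samul-tang high (-0.23, 0.00833).

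The single Paeoniae high library had the highest HAS3 of the 60 libraries. HAS3 was at 90.8 CPM in Paeoniae high, 62.4 in Paeoniae medium and 44.1 in Paeoniae low, and CEMIP at 66.7, 61.7 and 44.3 CPM. On the log2(CPM + 1) scale the high-dose library lay 0.86 above the vehicle mean for HAS3 and 0.42 for CEMIP, and 0.28 below it for HAS2 at 72.1 CPM. In the Angelicae libraries HAS3 was at 40.2, 39.1 and 40.0 CPM and HAS2 at 77.0, 60.8 and 61.5 CPM in order of falling dose, all below the vehicle range. CD44 lay between 2493 and 2794 CPM in these 6 libraries and HYAL2 between 61.2 and 65.4. With 1 library in a group there is no replicate check and no test.

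Genes around the members were taken from lists of the pathway. Of the 8 genes that supply the sugar nucleotides, all tested, 2 rose in Cinnamomi high (22.8% of all genes were called there), UGDH, which makes UDP-glucuronic acid (0.28 ± 0.08, adjusted p = 0.0068), and GFPT2, the entry enzyme of the hexosamine route (0.29 ± 0.06, adjusted p = 0.000392). In Sagunja-tang high 2 rose and 1 fell (17.1% of all genes called). PGM3, a hexosamine enzyme, went from 127 ± 2.9 to 176 ± 1.8 CPM (0.49 ± 0.07, adjusted p = 4.74e-06), UAP1, which makes UDP-N-acetylglucosamine, rose by 0.17 (adjusted p = 0.0272) and UGDH fell by 0.24 (adjusted p = 0.0273). The median log2 change of the list was 0.13 in Sagunja-tang high and 0.09 in Cinnamomi high, beside all-gene medians of 0.02 and 0.00. With all libraries edgeR called none of the 8 in the other 4 high-dose groups. When Sagunja-tang low library 1 was left out, GNPNAT1, a hexosamine enzyme, was called lower in Rehmanniae high (-0.19, adjusted p = 0.00831) and Astragali high (-0.15, 0.034), UGDH was called lower in Astragali high (-0.17, 0.0181), and UGP2 (0.13, 0.0439) and GFPT1 (0.17, 0.0103) were called higher in Sagunja-tang high.

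Among hyaluronan-binding matrix genes, 6 of 16 were tested. PTX3, which with TNFAIP6 cross-links hyaluronan in the cumulus matrix, rose in Sagunja-tang high from 32.4 ± 1.7 to 162 ± 3.8 CPM (2.33 ± 0.11, adjusted p = 9.16e-21), and TNFAIP6 rose there from 7.34 ± 0.51 to 9.80 ± 1.3 CPM (0.43 ± 0.14, adjusted p = 0.0236). The large aggregating proteoglycan VCAN fell in Cinnamomi high from 676 ± 21 to 382 ± 33 CPM (-0.81 ± 0.10, adjusted p = 7.68e-08), where the link protein HAPLN1 fell too (-0.37 ± 0.11, adjusted p = 0.00996) and TNFAIP6 rose (0.42 ± 0.14, adjusted p = 0.023). HAPLN1 fell in Rehmanniae high (-0.46 ± 0.11, adjusted p = 0.0112) and rose in Astragali high (0.34 ± 0.10, adjusted p = 0.0476).

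Of 9 CD44 partners, ligands and sheddases, 3 rose and 3 fell in Cinnamomi high, where 22.8% of all genes were called. The ligand SPP1, osteopontin, rose from 5.27 ± 0.91 to 8.60 ± 1.2 CPM (0.72 ± 0.13, adjusted p = 4.21e-05), and the sheddase MMP14 rose (0.41 ± 0.06, adjusted p = 5.75e-07), whereas the cytoskeletal linker RDX fell (-0.44 ± 0.05, adjusted p = 1.7e-09). SRGN, a proteoglycan that binds CD44, rose in Sagunja-tang high from 78.7 ± 2.1 to 136 ± 8.3 CPM (0.81 ± 0.06, adjusted p = 1.1e-13), where NF2 fell (-0.33 ± 0.10, adjusted p = 0.0149). EZR, another linker, fell in Cnidii, Rehmanniae, Astragali and Samul-tang high by 0.21 to 0.26 on the log2 scale. Without Sagunja-tang low library 1 the genes said to have risen or fallen in this and the 2 preceding paragraphs were all called in the same direction.

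As a description over the 25 group means of log2(CPM + 1), the genes whose pattern was most like that of HAS2 among 11096 genes were PTGS2 (Pearson r = 0.886), RRM2 (0.853) and C3orf52 (0.83). For HAS3 they were NPTX1 (0.929), ALDH1A3 (0.925) and TIPARP (0.922), for CEMIP SLC4A4 (0.888), ATP8B1 (0.858) and ALDH1A3-AS1 (0.842), and for CEMIP2 NEDD4 (0.939), WDR36 (0.875) and WNT5A (0.875). HYAL2 was most like LTBR (0.856), GAS2L1 (0.855) and PLPPR2 (0.846), HYAL3 most like ELAC2 (0.868), NOB1 (0.867) and PTPN18 (0.832), and CD44 most like HNRNPR (0.858), CS (0.853) and BUB1 (0.841). Over the 19 groups with at least 2 libraries the list began with STC2 (0.938) for HAS3 and TLE4 (0.873) for CEMIP, and again with PTGS2 (0.914) for HAS2. Among the members, the closest pairs were CEMIP with CEMIP2 (r = 0.712), HAS3 with CEMIP (0.681) and HYAL2 with HYAL3 (0.641), while HAS2 and HAS3 had r = 0.232. The vehicle is 1 of the 25 points, and all points share the scaling. Whether groups with the same sample code were handled together is not in the labels.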

How the data were processed

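RNA-seq of 60 SW1783 libraries was used as a table of RSEM expected counts that the authors deposited, for 60675 genes. Reads were trimmed with Trim Galore 0.6.5, checked with FastQC 0.11.9, aligned with STAR 2.7.3a and counted with RSEM 1.3.3 on hg38, per the submitters' processing notes. The annotation release and the strand setting of the counting are not given in the sources used here. Of the table's 279 columns, 60 matched the samples by name and 219 were not used. Symbols (56558 genes) came from a separate list of gene names, and positions (57055) from GENCODE 29 on GRCh38.

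Expected counts, 90.67% of them whole as deposited, were rounded. Genes with low counts were removed with filterByExpr, which left 17516, and 54 libraries in 19 groups of at least 2 were fitted together with edgeR 4.0.16 (R 4.3.3, limma 3.58.1): TMM scaling, robust quasi-likelihood test, 35 residual degrees of freedom, and 27 comparisons, each with Benjamini-Hochberg adjustment and a threshold of 0.05. Standard errors are the fold change over the square root of its F. CPM used TMM scaling over all 60 libraries, and levels per kilobase the GENCODE exon length. Groups with 1 library were compared as log2(CPM + 1) with no test. The script was tested on simulated counts. The precision depends on the spread between libraries as well as on the 20604792 to 29609799 counts per library.

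The alternatives were DESeq2 1.42.0, DESeq2 size factors, library size alone, a laxer filter, robust dispersion, only the groups compared, the replicate number as a block, and each library left out. All 10 members are described. From each pathway list, up to 4 genes called in a comparison and at 1 CPM or more were named, by size of change, and HAS2-AS1 was added for its overlap with HAS2. The most similar genes were the 3 with the highest Pearson r over group means among genes of at least 5 CPM. Members and lists were chosen with earlier results of these data known. One pathway list is not reported here.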

Additional observations from a re-analysis of the deposited data

Results flagged for a closer look

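Differences between extracts at the same dose passed the test for 4 results, each a direct comparison of a pair of extracts at 500 µg/mL with edgeR's quasi-likelihood test. HAS3 was higher in Cinnamomi high than in Astragali high by 1.31 on the log2 scale, in 3 of 3 libraries against 3. HAS2 in the same pair differed by -0.51, with Cinnamomi lower. HAS2 was higher in Sagunja-tang high than in Samul-tang high by 0.77, without overlap of 3 and 2 libraries. HAS3 in Cnidii high differed from Rehmanniae high by -0.58, with Cnidii lower in all libraries. This last call was lost without Cnidii high library 1, 2 or 3 or Rehmanniae high library 2 or 3 (adjusted p 0.0751 to 0.175). Of all genes, 27.6% were called for Cinnamomi against Astragali, 8.36% for Sagunja-tang against Samul-tang and 0.263% for Cnidii against Rehmanniae.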

How the results depend on the processing

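Among the members, 14 calls were made against vehicle, 12 between high and low dose and 4 between extracts. With only the groups compared in each fit these were 50, 11 and 8, and with a laxer filter on low counts 12, 6 and 4. The laxer filter was chosen after seeing the data, since a fit with no filter could not be made. DESeq2 gave 17, 12 and 5 calls, library size alone 13, 8 and 5, and DESeq2 size factors or robust dispersion 14, 12 and 4. Leaving out 1 library gave 11 to 44 calls against vehicle, 7 to 16 between doses and 3 to 9 between extracts, the highest of each without Sagunja-tang low library 1. Over all genes, correlations of same-numbered deviations ran from -0.15 to 0.14, and from 0.05 to 0.14 in Astragali high against low. Values this weak do not show that the replicate numbers pair the samples. They do not exclude a pairing for single members, whose order by number is given below. In some groups library 1 lay further from the other 2. Its scatter relative to counting noise was 7.82 and 10.3 in Astragali high, against 1.82 between 2 and 3. In Rehmanniae high it was 2.46 and 1.6, against 2.62. Whether this goes with the number was not tested. With the replicate block the calls were 16, 12 and 4. The share of all genes called is given above only for the main fit and the fit without Sagunja-tang low library 1. The counts under the other alternatives therefore do not set the members apart from other genes. For the called members, 84 alternatives ended the call and 332 kept it, and none reversed a direction; the cause of the losses was not tested. Depth limits HAS1, HYAL1 and HMMR-AS1 most.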

Other observations

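In the 16 groups of 3 libraries, the library numbered 1 had the highest HAS2 in 12, number 2 in 3 and number 3 in 1. For HAS3 the library numbered 3 was highest in 9 groups, number 2 in 6 and number 1 in 1. For HYAL3 the library numbered 1 was highest in 11.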
